A study of Rattus norvegicus with 9 samples.

Results

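The genes described here carry calcium and magnesium across the cells of the distal convoluted and connecting tubule of the rat kidney. They are a list of 10 symbols, Trpv5, Calb1, S100g, Pvalb, Slc8a1, Atp2b1, Atp2b4, Trpm6, Cnnm2 and Slc12a3, found by symbol among the 36267 features of the expression table, and each had 1 row. The list was drawn up by function and its rule uses symbols alone, but earlier results of these data were known when it was chosen. RNA of whole kidneys from 9 rats of 180 to 200 g was sequenced, with 3 rats in each of 3 groups. The labels used here give no sex, age or strain.

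Rats of the icariin group had contrast-induced acute kidney injury (CIAKI) after pretreatment with icariin, a flavonol glycoside of Epimedium plants, given into the stomach at 100 mg/kg once a day for 3 days. They then had the same injury procedure as rats of the CIAKI group, and both groups are called injured for that procedure alone. That procedure began with intragastric furosemide (200 mg/kg), a diuretic that acts on the thick ascending limb, went on with 6 h of dehydration and ended with iopromide, an iodinated X-ray contrast medium of 370 mg I/mL, by tail vein at 15 mL/kg. Control rats had no treatment, so furosemide, dehydration and contrast medium cannot be told apart in any difference from control. No group had icariin alone.

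In these tubule segments calcium crosses the cell rather than passing between cells. It enters through a channel in the luminal membrane, is carried by a calcium-binding protein, and leaves through an exchanger and pumps in the basolateral membrane. Magnesium enters the distal convoluted tubule through a channel of its own, in cells that take up salt through the thiazide-sensitive cotransporter Slc12a3. Parathyroid hormone and active vitamin D act on calcium transport in this part of the nephron.

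Levels are in CPM, which scales the reads of a gene to the same total in each library. Between 64.4 and 90.4 reads made up 1 CPM. A floor of 3 reads was 0.0332 to 0.0466 CPM, and 9 housekeeping genes stood at 11.0 CPM or above in all libraries. CPM has no length term, so levels are compared between libraries and not between genes. A feature was tested when it had at least 1 CPM in at least 3 libraries, which 16731 features did. Tests were limma on log2(CPM + 1), two-sided and Benjamini-Hochberg adjusted over those features, with calls at an adjusted p below 0.05. Of the 10 genes, 9 were tested, since Pvalb was listed at 0 in every library.

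The tissue label was checked against 6 kidney markers, which summed to 17950 to 18980 CPM with icariin, 6828 to 10360 CPM in CIAKI and 18850 to 20280 CPM in control. Of 6 markers of the distal convoluted and connecting tubule, all of them among the 10 genes, 5 were present in every library and Pvalb was at 0. They summed to 762 to 924 CPM with icariin, 788 to 877 CPM in CIAKI and 1297 to 1414 CPM in control. Slc12a3 and Calb1 made up most of these sums. Their means were 536.5 and 226 CPM with icariin, 517 and 219 CPM in CIAKI and 709 and 566 CPM in control. Of the 5 tested, 2 were called lower and 0 higher in CIAKI against control, beside 20.5% and 20.8% of all tested features. The sums therefore do not show that these markers fell together.

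Contrast injury was accompanied by lower calbindin, sodium-calcium exchanger, Cnnm2, Slc12a3 and Atp2b4 RNA and by higher Atp2b1 RNA, while the luminal channels Trpv5 and Trpm6 did not pass the test. In CIAKI kidneys against control 5 of the 9 tested genes were called lower and 1 higher. Over all tested features 41.3% were called, 20.5% lower and 20.8% higher. The median log2 fold change of the 9 genes was -0.35, beside -0.003 over all tested features. In whole tissue, fewer cells of a type and less RNA per cell cannot be told apart.

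**Figure D1:**
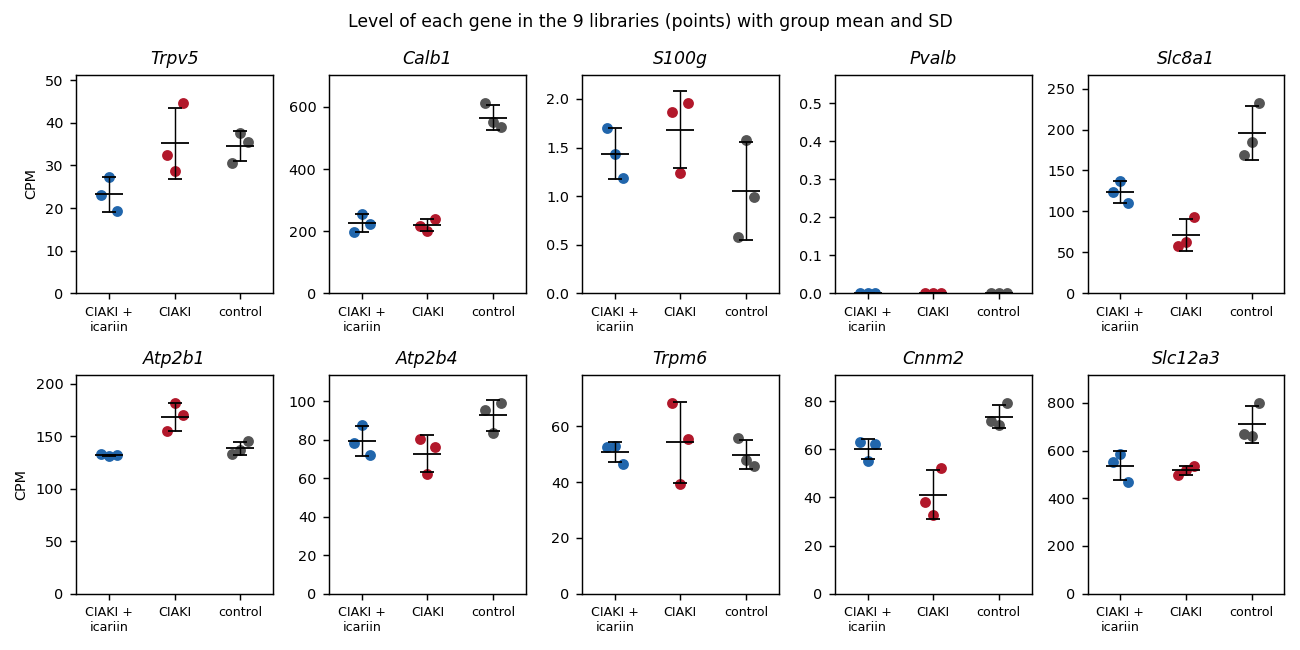
Level in CPM of each of the 10 genes in CIAKI with icariin, CIAKI and control kidneys, each panel with its own axis from 0; points are libraries, and bars are the group mean and SD (n = 3 each). Calb1 was low in both injured groups, Slc8a1 was intermediate with icariin, and Pvalb was listed at 0 throughout.

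Trpv5, the luminal channel through which calcium enters the cell, is identified as ENSRNOG00000015394. It stood at 23.1, 27.4 and 19.2 CPM in the icariin kidneys, at 32.4, 28.7 and 44.6 CPM in the CIAKI kidneys and at 30.7, 37.6 and 35.4 CPM in the control kidneys. The icariin libraries were the 3 lowest of the 9, and the CIAKI and control libraries overlapped. Against CIAKI, Trpv5 fell by 0.57 on the log2 scale with icariin (SE 0.175, adjusted p = 0.029), to a mean of 23.2 CPM against 35.3 CPM. That call was lost without CIAKI library 3, the highest of its group (log2 fold change -0.39, adjusted p = 0.0758). It was also lost without icariin library 1 (0.0661) or 3 (0.0935), without the filter on low values (0.0511) and when only the 2 groups were fitted (0.0555). CIAKI and control means were 35.3 ± 8.33 and 34.6 ± 3.52 CPM (SD, n = 3 each). The difference on the log2 scale was 0.01, with a 95% interval of -0.387 to 0.404. The icariin and control libraries did not overlap, yet the log2 fold change of -0.56 did not pass (95% interval -0.959 to -0.168, adjusted p = 0.26).

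Calb1 (ENSRNOG00000007456) encodes calbindin, the vitamin D-dependent protein that carries calcium from the luminal to the basolateral side of the cell. Its level was 198, 255 and 224 CPM with icariin, 216, 202 and 239 CPM in CIAKI and 612, 551 and 534 CPM in control. Each of the 6 injured kidneys was below each control, and the CIAKI values lay within the range of the icariin values. In CIAKI the mean was 219 ± 19.0 CPM, against 566 ± 41.3 CPM in control (SD, n = 3 each). On the log2 scale the difference was -1.37, with an SE of 0.107 and an adjusted p = 5.1e-05. With icariin the mean was 226 ± 28.7 CPM (SD, n = 3), and the log2 fold change against CIAKI was 0.04 with a 95% interval of -0.201 to 0.282 (adjusted p = 0.79). Against control, Calb1 fell by 1.32 on the log2 scale with icariin (95% interval -1.566 to -1.083, adjusted p = 0.0029).

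In that last comparison Calb1 ranked 2 by p among the 16731 features and 9 by size of fall among the 38 called lower. The fall of Calb1 against control kept its call under 20 alternative settings in each injured group, with log2 fold changes of -1.44 to -1.31 in CIAKI and -1.42 to -1.23 with icariin. Between 12924 and 44681 reads lay behind each Calb1 value.

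S100g (ENSRNOG00000004222), the smaller vitamin D-dependent calbindin, was scarce, with 42 to 155 reads a library. It stood at 1.70, 1.43 and 1.18 CPM with icariin, at 1.86, 1.23 and 1.96 CPM in CIAKI and at 0.576, 1.58 and 0.991 CPM in control. The 3 groups overlapped, and the control libraries differed most among themselves. The log2 fold change of CIAKI against control was 0.41 (95% interval -0.061 to 0.878, adjusted p = 0.15), and it was -0.13 for icariin against CIAKI (adjusted p = 0.64). No change in S100g was detected, and the SD of its control libraries was 48.1% of their mean. Pvalb (ENSRNOG00000006471), a calcium buffer of the early distal convoluted tubule in rodents, was listed at 0 in all 9 libraries, so this marker of the segment was absent from the table's values.

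Slc8a1 (ENSRNOG00000008479) is the basolateral sodium-calcium exchanger, the main exit path for calcium in these cells. It stood at 124, 137 and 110 CPM in icariin kidneys, 57.7, 62.5 and 93.5 CPM in CIAKI kidneys and 169, 185 and 232 CPM in control kidneys. The 3 groups did not overlap at all, with CIAKI lowest, icariin between and control highest. In CIAKI against control Slc8a1 fell by 1.46 on the log2 scale (SE 0.184, adjusted p = 0.00042), a ratio of means of 0.365. With icariin Slc8a1 rose against CIAKI, to 124 ± 13.3 CPM against 71.2 ± 19.4 CPM (SD, n = 3 each), or by 0.81 on the log2 scale with an SE of 0.184 (adjusted p = 0.0078). The icariin mean was still 0.633 times that of control, a log2 fold change of -0.65 that did not pass (95% interval -1.064 to -0.233, adjusted p = 0.21). DESeq2 on recovered reads called that last difference (adjusted p = 0.0268).

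The authors' deposited table of selected mRNAs held Slc8a1 and Trpv5 of the 10 genes, in FPKM, a unit with a length term. In the authors' deposited table Slc8a1 had 33.5, 36.9 and 30.5 FPKM with icariin, against 15.0, 16.8 and 25.2 FPKM in CIAKI. Trpv5 in the authors' deposited table had 3.92, 4.48 and 3.33 FPKM with icariin, against 5.23, 4.73 and 7.33 FPKM in CIAKI. Per length, the exchanger was thus the more abundant of this pair in each of the 6 libraries. Slc8a1 is also transcribed in muscle and neurons. Summed muscle markers stayed at 0.475 to 0.566 CPM with icariin, 0.550 to 1.62 CPM in CIAKI and 0.589 to 0.890 CPM in control for 6 skeletal muscle genes, 5 of them with a row. The 5 neuron markers summed to 1.32 to 2.14 CPM with icariin, 0.337 to 0.373 CPM in CIAKI and 1.69 to 2.54 CPM in control. Syt1 made up most of these sums, with means of 1.41 CPM with icariin, 0.264 CPM in CIAKI and 1.69 CPM in control. The other neuron markers averaged 0.173 CPM or less in every group. Syt1 alone of the 5 passed the filter on low values, through the groups in which it was high. The sums were lowest in CIAKI, as was Slc8a1, and the part of neurons in that result was not tested. The 4 cardiac markers summed to 0.0708 to 0.352 CPM with icariin, 0.0962 to 1.24 CPM in CIAKI and 0.316 to 0.608 CPM in control. The 6 smooth muscle and mesangial markers summed to 161 to 223 CPM with icariin, 152 to 239 CPM in CIAKI and 185 to 291 CPM in control, with overlapping groups.

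Atp2b1 (ENSRNOG00000004026) and Atp2b4 (ENSRNOG00000003031) encode plasma membrane calcium pumps, which use ATP to push calcium out of the cell. Atp2b1 stood at 133, 131 and 132 CPM with icariin, 154, 181 and 170 CPM in CIAKI and 133, 137 and 145 CPM in control. CIAKI libraries were the 3 highest, each above all icariin and control libraries, and the icariin libraries were nearly equal. Atp2b1 rose by 0.28 in CIAKI against control on the log2 scale (SE 0.071, adjusted p = 0.012), a call lost with upper-quartile scaling (adjusted p = 0.0535). It fell by 0.35 with icariin against CIAKI (SE 0.071, adjusted p = 0.0046), and the log2 fold change of icariin against control was -0.07 (adjusted p = 0.84). It was the 1 gene of the 9 called higher in CIAKI.

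Atp2b4 had 78.2, 87.7 and 72.1 CPM with icariin, 80.2, 62.1 and 76.3 CPM in CIAKI and 95.2, 83.8 and 98.9 CPM in control. CIAKI and control did not overlap, while the icariin libraries reached into both. Atp2b4 was called lower in CIAKI than in control (log2 fold change -0.35, SE 0.115, adjusted p = 0.037). That call was lost in 7 of 20 alternatives, among them leaving out CIAKI library 2 (adjusted p = 0.105), icariin library 1 (0.0518), control library 1 (0.101) or control library 3 (0.116). With icariin against CIAKI, Atp2b4 had a log2 fold change of 0.13 (95% interval -0.134 to 0.384, adjusted p = 0.41).

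Trpm6 (ENSRNOG00000013053), the luminal magnesium channel, stood at 52.4, 53.1 and 46.6 CPM with icariin, 68.2, 39.2 and 55.5 CPM in CIAKI and 55.8, 47.9 and 45.8 CPM in control. The CIAKI libraries held both the highest and the lowest value of the 9, and the groups overlapped. The log2 fold change of CIAKI against control was 0.09 (95% interval -0.305 to 0.486, adjusted p = 0.71). For icariin against CIAKI it was -0.06 (95% interval -0.459 to 0.331, adjusted p = 0.8). Changes within these intervals remain compatible with the values.

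Cnnm2 (ENSRNOG00000020113) is a basolateral protein of the distal convoluted tubule whose mutations cause magnesium wasting in people. It stood at 63.1, 55.2 and 62.0 CPM with icariin, 38.1, 32.7 and 52.3 CPM in CIAKI and 71.8, 69.9 and 79.0 CPM in control. As with Slc8a1, the 3 groups did not overlap, with icariin between CIAKI and control. In CIAKI against control the log2 fold change was -0.85 (SE 0.149, adjusted p = 0.0021). Cnnm2 rose with icariin against CIAKI by 0.56 on the log2 scale (SE 0.149, adjusted p = 0.016), a call lost without icariin library 1 (adjusted p = 0.0503). The log2 fold change of icariin against control was -0.29 (95% interval -0.625 to 0.049, adjusted p = 0.58).

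Slc12a3 (ENSRNOG00000057072), the thiazide-sensitive sodium chloride cotransporter that defines the distal convoluted tubule and is lost in Gitelman syndrome, stood at 553, 587 and 470 CPM with icariin. It had 498, 517 and 535 CPM in CIAKI and 671, 659 and 798 CPM in control. Each of the 6 injured kidneys was below each control, as for Calb1, and the 2 injured groups overlapped. Its mean was 517 ± 18.5 CPM in CIAKI, against 709 ± 76.7 CPM in control (SD, n = 3 each). Slc12a3 fell by 0.45 on the log2 scale in that comparison (SE 0.106, adjusted p = 0.0087). Between icariin and CIAKI the log2 fold change was 0.05 (95% interval -0.192 to 0.287, adjusted p = 0.75). Between icariin and control it was -0.4 (95% interval -0.643 to -0.164), which did not pass in limma (adjusted p = 0.18) and passed in DESeq2 on recovered reads (adjusted p = 0.00663).

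Promoter sequences from RefSeq (GRCr8) were at hand for 8 of the 10 genes, and 3 are shown because their levels differed in pattern: Slc12a3 was low in both injured groups, Cnnm2 was intermediate with icariin, and Trpv5 was lowest with icariin. Each is the 250 bases before the gene's start, 5′ to 3′ on the gene's strand, at chr19:10675051-10675300 (minus strand), chr1:255584902-255585151 (plus strand) and chr4:71529383-71529632 (minus strand). Capitals mark matches on either strand to 5 motifs, which are the TATA box (TATAAA), the CCAAT box (CCAAT), the GC box (GGGCGG), the core of HNF1 sites (GTTAAT) and the core of nuclear receptor sites (AGGTCA). No match overlapped another.
Slc12a3: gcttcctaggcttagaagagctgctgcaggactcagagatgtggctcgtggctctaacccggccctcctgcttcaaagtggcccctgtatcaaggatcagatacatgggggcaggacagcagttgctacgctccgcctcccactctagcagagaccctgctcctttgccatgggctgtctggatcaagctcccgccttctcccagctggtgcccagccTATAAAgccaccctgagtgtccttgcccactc
Cnnm2: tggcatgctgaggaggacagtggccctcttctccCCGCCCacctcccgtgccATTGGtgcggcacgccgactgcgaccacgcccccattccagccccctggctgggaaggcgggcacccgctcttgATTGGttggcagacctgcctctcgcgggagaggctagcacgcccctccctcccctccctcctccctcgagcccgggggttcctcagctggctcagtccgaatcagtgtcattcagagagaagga
Trpv5: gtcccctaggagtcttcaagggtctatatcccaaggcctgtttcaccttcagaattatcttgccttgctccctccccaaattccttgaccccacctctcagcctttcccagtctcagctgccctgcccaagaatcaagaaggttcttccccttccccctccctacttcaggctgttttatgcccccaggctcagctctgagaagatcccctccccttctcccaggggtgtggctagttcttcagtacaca
The Slc12a3 window held TATAAA with its first base at -32 from the start, a motif that 12.9% of 33469 RefSeq windows of that length hold. The Cnnm2 window held the GC box as CCGCCC at -216 and the CCAAT box as ATTGG at -198 and -124, and these motifs occur in 30.5% and 34.0% of windows. The Trpv5 window held no match to the 5 motifs, of which GTTAAT occurs in 6.5% and AGGTCA in 14.1% of windows. GC content was 59.2% for Slc12a3, 67.2% for Cnnm2 and 54.4% for Trpv5, beside a median of 51.2% over all windows. The matches are letters in a window and say nothing of binding.

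In icariin against CIAKI, 2 of the 9 tested genes were called higher (Slc8a1 and Cnnm2) and 2 lower (Trpv5 and Atp2b1). Over all tested features 39.4% were called, 19.2% higher and 20.2% lower, so these counts were close to the background. The median of the 9 genes was 0.04, beside 0.017 over all features. The 5 genes that did not pass were Calb1, Slc12a3, Trpm6, Atp2b4 and S100g. For Calb1 the upper bound of 0.282 lay below the size of its fall in CIAKI against control (interval -1.607 to -1.124). For Slc12a3 the upper bound was 0.287, and its fall in CIAKI against control had an interval of -0.691 to -0.212. The small end of that fall was less than 0.287 in size, and both comparisons share the CIAKI libraries. Nothing is therefore read from the upper bound of Slc12a3.

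In icariin against control, 1 of the 9 tested genes was called, Calb1, which was lower, and 0 were called higher. Over all features 0.628% were called, 0.4% higher and 0.227% lower, 105 features in all. The median of the 9 genes was -0.29, beside -0.002 over all features. The icariin libraries lay below all control libraries for 6 of the 9 genes, which are Calb1, Trpv5, Slc8a1, Slc12a3, Cnnm2 and Atp2b1, and for 10.2% of all tested features. Atp2b1 was among them by less than 1 CPM, its highest icariin library being at 132.5 CPM and its lowest control library at 132.8 CPM. At an unadjusted p below 0.05 in limma, 4 of the 9 genes were lower (Calb1, Trpv5, Slc8a1 and Slc12a3) and 0 were higher. Over all tested features 10.2% had such a p, 4.73% higher and 5.45% lower. This comparison shares the control libraries with CIAKI against control and the icariin libraries with icariin against CIAKI.

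**Figure D2:**
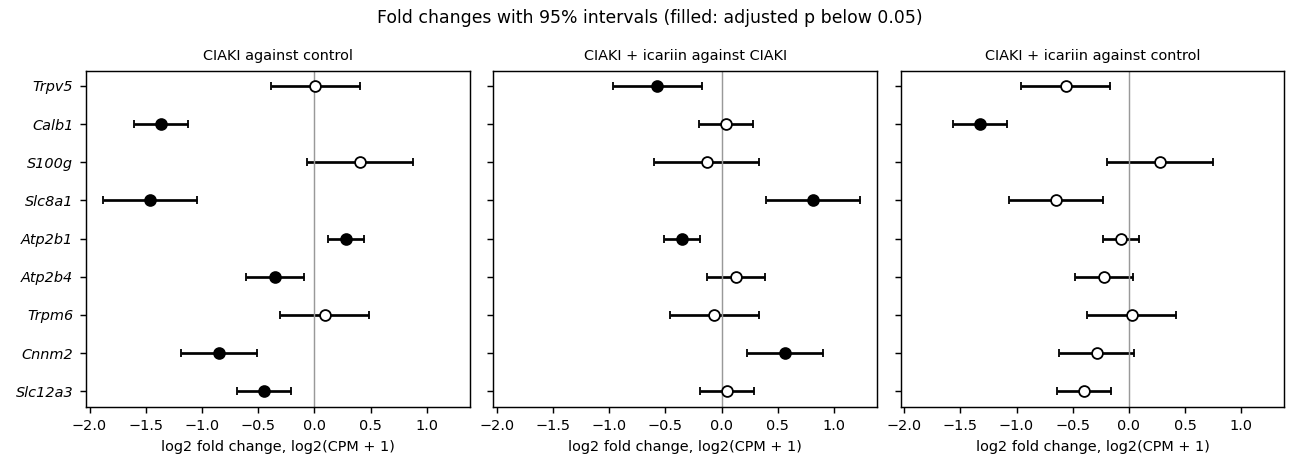
Log2 fold change of the 9 tested genes on the log2(CPM + 1) scale in the 3 comparisons, with 95% intervals from limma that are not adjusted for multiple tests; filled points had an adjusted p below 0.05. Calb1 stood at -1.37 in CIAKI and -1.32 with icariin against control, and at 0.04 between the injured groups.

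**Figure D3:**
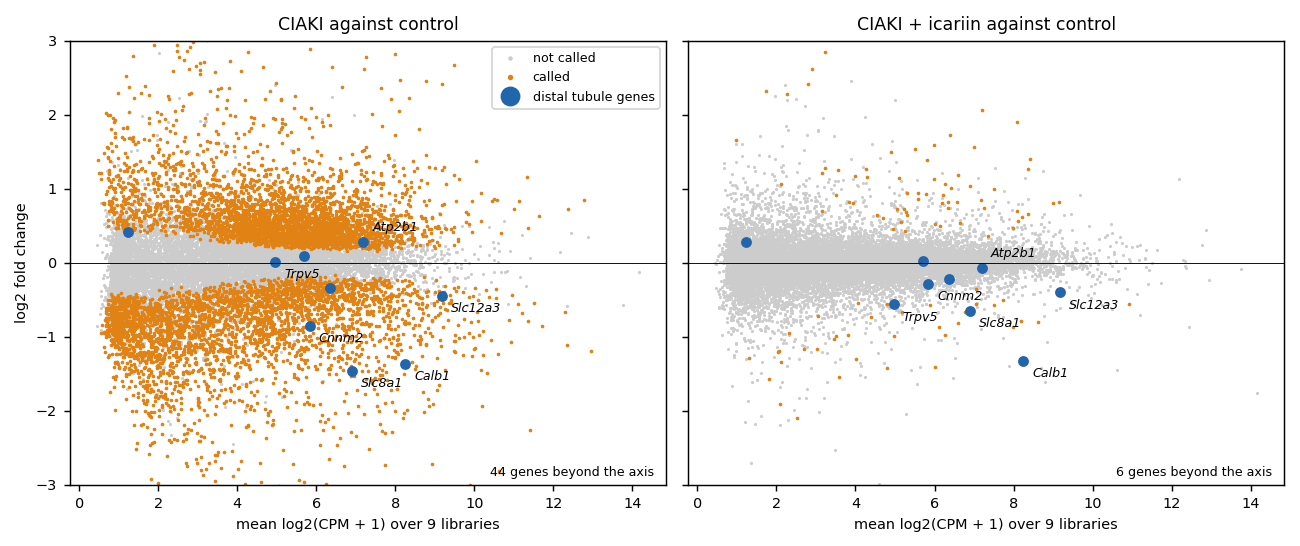
Log2 fold change of every tested feature against its mean log2(CPM + 1) over 9 libraries, for CIAKI against control and for CIAKI with icariin against control, with the 9 tested genes in large blue points. In the second panel 105 features were called, and Calb1 was the called gene of the 9; 44 and 6 features lay beyond the axis.

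Closest relatives of the 9 genes, named for their relation to them, differed in direction where they were called. Trpv6, the sister channel of Trpv5, averaged 0.263 CPM with icariin, 1.93 CPM in CIAKI and 0.363 CPM in control. It had at least 1 CPM in the 3 CIAKI libraries alone (1.12, 3.49 and 1.18 CPM) and entered the test through that group, so its difference is given as values without a test. Cnnm1, a relative of Cnnm2, averaged 8.37 CPM with icariin, 26.3 CPM in CIAKI and 8.25 CPM in control. Cnnm1 rose in CIAKI against control by 1.49 on the log2 scale (adjusted p = 0.0017), opposite in sign to Cnnm2, and fell by 1.48 with icariin against CIAKI (adjusted p = 0.002). Cnnm4 averaged 28.3 CPM with icariin, 47.2 CPM in CIAKI and 26.8 CPM in control. Its call higher in CIAKI than in control was lost without control library 1 (adjusted p = 0.0536). Its call lower with icariin than in CIAKI was lost without any 1 of the 3 icariin libraries. Cnnm3 was lower in CIAKI than in control (-0.33, adjusted p = 0.0072). Trpm7, the widely expressed sister of Trpm6, gave 0.05 (adjusted p = 0.67) in that comparison. Among the pumps, Atp2b2 was higher in CIAKI than in control (0.82, adjusted p = 0.0052), with means of 10.3 CPM with icariin, 15.6 CPM in CIAKI and 8.39 CPM in control.

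Of 14 further calcium transport genes, 12 were tested, and in CIAKI against control 7 were called higher and 3 lower, with a median of 0.37. Over all tested features 20.8% were called higher and 20.5% lower in that comparison, the background for this list and those that follow. Trpv6 among the 7, and Atp2b3 and Slc8a3 among the 3, passed the filter on low values only through groups in which they were high, so nothing is read from these counts. S100a10 and Anxa2, partners that bring Trpv5 to the cell surface, led the rise. S100a10 had 29.4, 27.7 and 23.5 CPM with icariin, 171, 113 and 88.9 CPM in CIAKI and 24.0, 26.4 and 23.0 CPM in control. CIAKI libraries stood far above the others, which overlapped. Log2 fold changes were 2.25 for S100a10 (adjusted p = 9.1e-05) and 1.84 for Anxa2 (adjusted p = 0.00015), while the PDZ scaffold Pdzd3 fell by 1.05 (adjusted p = 0.0025). Icariin against CIAKI gave 2 called higher and 7 lower with a median of -0.44, beside 19.2% higher and 20.2% lower over all tested features. Trpv6, Atp2b3 and Slc8a3 were tested here too, so nothing is read from these counts or from either median. The count of 2 higher was 1 with a filter of at least 5 CPM in 3 libraries. Log2 fold changes with icariin against CIAKI were -2.12 for S100a10 (adjusted p = 0.00015), -1.78 for Anxa2 (adjusted p = 0.00021) and 1.1 for Pdzd3 (adjusted p = 0.0021). The count of 3 lower in CIAKI was 1 without CIAKI library 1, CIAKI library 3 or control library 2.

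Of 21 further magnesium transport genes, 20 were tested, with 7 called higher and 6 lower in CIAKI against control and a median of 0.1. Egf, whose product stimulates Trpm6, averaged 663 CPM with icariin, 198 CPM in CIAKI and 712 CPM in control. The log2 fold change of Egf was -1.84 in CIAKI against control (adjusted p = 4.1e-05) and 1.74 with icariin against CIAKI (adjusted p = 6.1e-05). Pcbd1, a cofactor of the HNF1 factors whose mutations cause magnesium wasting in people, fell to 77.1 CPM in CIAKI, against 171 CPM in control (adjusted p = 4.7e-05). Ptp4a1, a phosphatase that binds CNNM proteins, rose to 175 CPM in CIAKI, against 76.3 CPM in control (adjusted p = 7.2e-05). With icariin against CIAKI, 6 genes were called higher and 8 lower, and the lower count was 5 without icariin library 3. That count was also 5 when only the 2 groups were fitted, and it was 4 without the filter on low values.

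Of 11 regulators, 10 were tested, with 2 called higher and 5 lower in CIAKI against control, a median of -0.15. Esr1, an oestrogen receptor, averaged 163 CPM with icariin, 18.4 CPM in CIAKI and 145 CPM in control, a log2 fold change of -2.99 in CIAKI against control with an adjusted p = 6.8e-05. Pth1r, the receptor of parathyroid hormone, averaged 372 CPM with icariin, 123 CPM in CIAKI and 401 CPM in control, and fell by 1.71 in CIAKI (adjusted p = 9.1e-05). Klotho (Kl) fell by 1.66 in CIAKI against control (adjusted p = 0.00034). With icariin against CIAKI these 3 rose by 3.16 for Esr1 (adjusted p = 7.1e-05), 1.61 for Pth1r (adjusted p = 0.00015) and 1.55 for Kl (adjusted p = 0.00054). In all, 5 regulators were called higher and 2 lower in that comparison, beside 19.2% and 20.2% over all tested features. The count lower was 1 without CIAKI library 2 or 3 or icariin library 1 or 2. It was also 1 without the filter on low values, with TMM (trimmed mean) or upper-quartile scaling, in edgeR and when only the 2 groups were fitted. In each of these settings Vdr, the vitamin D receptor, lost its call (adjusted p = 0.0532 to 0.103). In CIAKI against control the count of 2 higher became 1 without CIAKI library 1 or 3 or control library 3. Cyp24a1, which degrades active vitamin D and is a target of its receptor, averaged 117 CPM with icariin, 274 CPM in CIAKI and 196 CPM in control. It was called lower with icariin than in CIAKI (log2 fold change -1.2, adjusted p = 0.0072), and neither injured group passed against control.

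The 9 tested members of the WNK pathway, which regulates Slc12a3, gave 4 higher and 2 lower in CIAKI against control with a median of 0.18. Nr3c2, the mineralocorticoid receptor, fell by 0.89 (adjusted p = 0.00037), and the kinase Oxsr1 rose by 0.61 (adjusted p = 0.00054). Icariin against CIAKI gave 1 higher and 3 lower, and the higher count was 2 without CIAKI library 3. Of 11 transcription factors and markers of the distal convoluted and connecting tubule, none of them among the 10 genes, 5 were called lower and 1 higher in CIAKI against control, with a median of -0.43. Emx1 fell by 0.8 (adjusted p = 0.0055) and Scnn1b, a subunit of the epithelial sodium channel, by 0.6 (adjusted p = 0.008). Scnn1b and Scnn1g of this list also serve below as markers of principal cells. The count of 5 lower was 3 without CIAKI library 1 or 2, and the count of 1 higher was 0 without CIAKI library 2 or 3 or control library 1 or 2. The count higher was also 0 without the filter on low values, with upper-quartile scaling and when only the 2 groups were fitted. Icariin against CIAKI gave 5 higher and 1 lower, with a median of 0.47.

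The thick ascending limb is the upstream segment where furosemide acts. Its 5 tested genes were the claudins Cldn10, Cldn16 and Cldn19 of the paracellular path, with Slc12a1 and Kcnj1, which carry ions through the cell. Slc12a1 averaged 2170 CPM in CIAKI and 1483 CPM in control, and Kcnj1 400 and 306 CPM, and neither was called. In CIAKI against control 2 of the 5 genes were called lower, where 41.3% of all tested features were called and 20.5% were lower. Nothing is read from so small a count. Cldn19, which builds a cation-selective tight junction, fell by 0.98 (adjusted p = 0.0035). Cldn10 was the other called lower (adjusted p = 0.035), a call lost without any 1 of the 3 control libraries or CIAKI library 1 or 3. That call was also lost in edgeR (adjusted p = 0.08), without the filter on low values (0.0627) and when only the 2 groups were fitted (0.0664). Icariin against CIAKI gave 1 higher, and 2 without CIAKI library 2 or control library 2 or with replicate number as a block. In icariin against control, limma, edgeR and DESeq2 each called 0 of the 67 tested genes of these 6 lists, and 1 was higher and 2 were lower at an unadjusted p below 0.05 in limma, where 10.2% of all tested features had such a p. The ubiquitin ligase Nedd4l was called in that comparison without CIAKI library 2 (adjusted p = 0.0448).

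**Figure D4:**
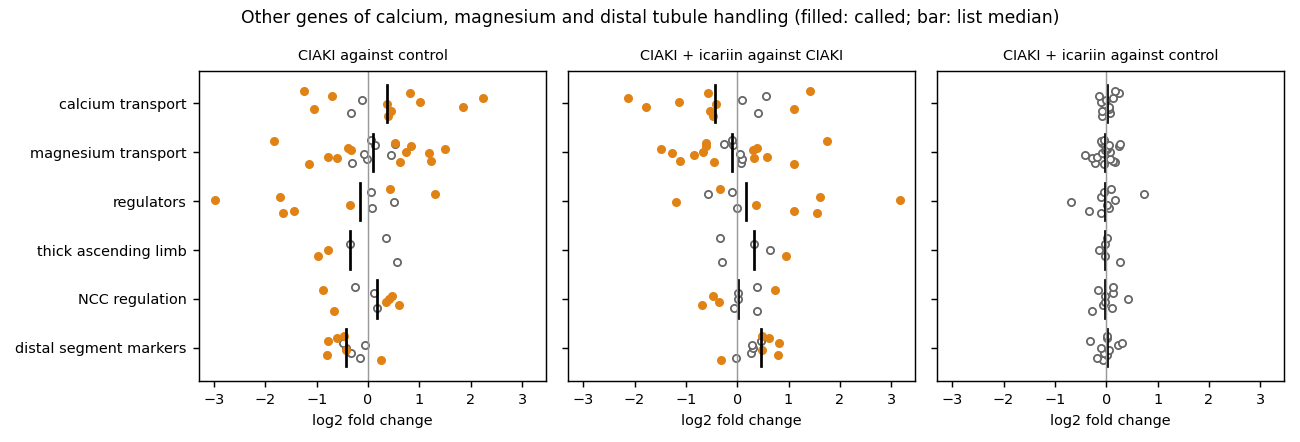
Log2 fold change of the other tested genes of 6 lists of calcium, magnesium and distal tubule handling in the 3 comparisons; filled points had an adjusted p below 0.05 and bars are list medians. The calcium transport median was 0.37 in CIAKI against control and -0.44 with icariin against CIAKI. It includes Trpv6, Atp2b3 and Slc8a3, which passed the filter on low values only through groups in which they were high. No point was filled in icariin against control.

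Markers of other cells also moved between groups, and their part in these results was not tested. The 8 proximal tubule markers summed to 19100 to 21030 CPM with icariin, 7722 to 10590 CPM in CIAKI and 19540 to 23380 CPM in control, and 6 of them were called lower in CIAKI. Their sums with icariin overlapped those of control. Calb1 and Slc12a3 lay below all controls there, as did 10.2% of all tested features, and Slc12a3 did not pass in limma (adjusted p = 0.18). The 11 distal transcription factors and markers outside the 10 genes had a median log2 fold change of 0.01 in icariin against control, with 0 called. Scnn1b and Scnn1g of these 11 are also among the 6 principal cell markers, so that list does not stand for the distal convoluted and connecting tubule alone. Whether that segment was intact was not tested. Erythroid markers, 4 of 5 with a row, summed to 369 to 1280 CPM with icariin, 1835 to 2193 CPM in CIAKI and 340 to 1258 CPM in control. Endothelial markers, 5 of 6 with a row, summed to 272 to 347 CPM with icariin, 192 to 208 CPM in CIAKI and 297 to 337 CPM in control, and 3 of them were called lower in CIAKI. The 6 macrophage markers summed to 69.0 to 88.4 CPM with icariin, 41.2 to 63.0 CPM in CIAKI and 82.4 to 91.7 CPM in control. Of the 5 macrophage markers tested, 1 was called higher and 3 lower in CIAKI against control. The endothelial and macrophage sums were both lowest in CIAKI, as were Slc8a1 and Cnnm2. Principal cell markers summed to 706 to 926 CPM with icariin, 482 to 756 CPM in CIAKI and 415 to 488 CPM in control. Of these 6 markers, 2 were called higher and 3 lower in CIAKI against control, so the sum hides opposite changes. Aqp2 averaged 380 CPM in CIAKI and 199.5 CPM in control, while Avpr2 averaged 5.97 and 14.7 CPM. Over all tested features 20.8% were called higher and 20.5% lower in that comparison. Thick ascending limb sums overlapped, at 4965 to 6252 CPM with icariin, 3773 to 5722 CPM in CIAKI and 3768 to 6413 CPM in control. Within them Umod averaged 1764 CPM in CIAKI and 3066 CPM in control, while Slc12a1 averaged 2170 and 1483 CPM. Of these 6 markers, 1 was called lower and 0 higher in CIAKI against control. Intercalated cell markers overlapped too, at 464 to 630 CPM with icariin, 400 to 564 CPM in CIAKI and 499 to 532 CPM in control.

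Genes with the pattern most like Slc12a3 over the 9 libraries, by root mean square distance between centred log2(CPM + 1) profiles, were Sh3pxd2a (0.077), Zeb1 (0.082) and Usp46 (0.087). Slc12a3 itself deviated from its own mean by 0.229 on that scale. For Trpv5, which deviated by 0.335, the closest were Pkia (0.106), Tra2a (0.167) and Cdk17 (0.169). For Trpm6, which deviated by 0.209, they were Hmgxb4 (0.076), Gtf3c6 (0.08) and Casp9 (0.09). Calb1 deviated most, by 0.645, and its closest were Ccnb1 (0.234), Apln (0.235) and Ahcyl2 (0.244), a look added after the values were seen. Ahcyl2 averaged 348 CPM with icariin, 294 CPM in CIAKI and 609 CPM in control.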

How the data were processed

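Total kidney RNA of 9 rats, extracted with Trizol, went into Illumina TruSeq libraries, per the labels' protocols. The submitters' processing notes name Bowtie 0.12.2 and mm8. Since mm8 is a mouse build and the identifiers belong to rat Ensembl genes, the reference is not settled, and no coordinates of the files are given. No strand setting or handling of shared reads is given in these sources, so paralogues and overlapping genes are uncertain.

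The main table was deposited in CPM. Its steps gave whole reads for 100% of values (within 0.1), which matched 23850 of 23850 read counts in the authors' deposited table of selected mRNAs. That deposited table also holds FPKM, per the file headers. Tables of lncRNAs, circRNAs and miRNAs were not used here. A pseudocount of 1 was added before taking log2, which understates the change of low genes. Limma 3.58.1 with an intensity trend (R 4.3.3) was fitted to all 9 libraries with group as the factor, Benjamini-Hochberg adjusted, after testing on simulated data. Alternatives included edgeR 4.0.16 (quasi-likelihood) and DESeq2 1.42.0 on the recovered reads. Floors and read counts cover counting error only.

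The 10 genes and the lists were chosen with earlier results of these data known. The 10 genes are named in every comparison, with up to 3 genes a list and comparison by smallest p, and 3 nearest patterns for Slc12a3, Trpv5 and Trpm6. Relatives of the 10 genes, Cyp24a1, single list genes that alternatives changed and the neighbours of Calb1 were named after their values were seen. Some symbols of the lists were not analysed here. Promoters came from RefSeq (GRCr8), matched by symbol.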

Additional observations from a re-analysis of the deposited data

How the results depend on the processing

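Of 27 results for a tested gene of the 10 in a comparison, 20 kept their call in all alternatives and 0 reversed. The number of features called in icariin against control was 105 and varied most, with 52 without the filter on low values, 523 in DESeq2, 76 in edgeR and 31 to 127 when a library was left out. It was 61 without icariin library 1, 31 without icariin library 2, 41 without icariin library 3, 38 without control library 1 and 31 without control library 2 or 3. DESeq2 called 4 of the genes lower there, adding Trpv5 (0.0497), Slc8a1 and Slc12a3. The count lower in icariin against CIAKI was 1 without the filter or when only the 2 groups were fitted, and 1 to 2 when a library was left out, which lost Trpv5. The count higher in that comparison was 1 to 2 when a library was left out, 1 without icariin library 1. The count higher in CIAKI against control was 0 with upper-quartile scaling, which moved the median of all features by -0.068.

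No pairing of the rats by replicate number was evident. Deviations of same-numbered libraries correlated at -0.03 to 0.08, and 0 of 9 pairs passed 0.1. The 18 pairs with other numbers ranged from -0.1 to 0.04. Such values from 3 libraries a group do not exclude a pairing. With a replicate block 6678, 6314 and 73 features were called in CIAKI against control, icariin against CIAKI and icariin against control, and Atp2b4 lost its call in the first (adjusted p = 0.0536). With 3 rats a group, small changes in Trpm6, and in S100g with 42 to 155 reads, were beyond the reach of the test.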

Other observations

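Relatives of the pumps and the exchanger were scarce. Atp2b3, a calcium pump, averaged 4.23 CPM with icariin, 0.965 CPM in CIAKI and 3.77 CPM in control. The exchanger Slc8a3 had 1.90, 0.722 and 1.34 CPM with icariin, 0.493, 0.565 and 0.528 CPM in CIAKI and 1.04, 1.34 and 2.27 CPM in control. Both genes passed the filter on low values only through groups in which they were high and are given as values. Slc8a2, another exchanger, gave a log2 fold change of -0.33 in CIAKI against control in limma, which did not pass (adjusted p = 0.31). Vdr, the vitamin D receptor, averaged 218 CPM with icariin, 276 CPM in CIAKI and 205 CPM in control, with a log2 fold change of 0.42 in CIAKI against control (adjusted p = 0.011). Kcnj10, a basolateral potassium channel of the distal convoluted tubule whose loss causes salt and magnesium wasting in people, averaged 25.2 CPM with icariin, 16.2 CPM in CIAKI and 28.5 CPM in control. Its log2 fold change was -0.78 in CIAKI against control (adjusted p = 0.0031) and 0.59 with icariin against CIAKI (adjusted p = 0.012).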
